A study of Mus musculus with 24 samples.

Results

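Classical cadherins and the protocadherins that lie outside the Pcdha, Pcdhb and Pcdhg gene clusters were followed in 2 sensory nuclei of the newborn mouse thalamus. Members were all genes on the array whose symbol is Cdh or Pcdh followed by a number (with or without a final x, as in Pcdh11x), read from probe sets annotated to 1 symbol only. Where a gene had several probe sets, the one with the highest mean over all arrays was used. This gave 33 members of 18194 genes, measured by 72 probe sets. They comprised 5 type I classical cadherins, 11 type II classical cadherins, 5 other cadherins with a Cdh number, 4 delta-1 protocadherins, 5 delta-2 protocadherins and 3 other nonclustered protocadherins. Cdh12 and Cdh24 were not analysed here.

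The tissue was microdissected from vibratome sections of wild-type C57BL/6 pups at postnatal day 4 (P4) and at birth (P0). It came from the ventrobasal nucleus (VB, the somatosensory relay to the cortex) and the dorsal lateral geniculate nucleus (dLGN, the visual relay). In embBE pups both eyes had been cauterized in utero, before birth, and control pups kept theirs. Each array held RNA pooled from pups of 1 litter and 1 condition, so the spread between arrays is a spread between pools. The 24 arrays comprised 3 embBE and 3 control arrays of VB at P4, 3 and 3 of VB at P0, 3 and 3 of dLGN at P4, and 4 embBE and 2 control arrays of dLGN at P0. Values are RMA signals, log2 measures of hybridization intensity after background correction and normalization by the study's authors. Arrays are named by the pair of numbers in their labels (such as 39_3), whose meaning the labels do not state.

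Classical cadherins are calcium-dependent adhesion proteins that bind the same or a related cadherin on the opposing cell and reach the actin cytoskeleton through beta-catenin and alpha-catenin. In the developing brain, type II cadherins and delta protocadherins are expressed in combinations that differ between nuclei, and they take part in sorting neurons into nuclei and in matching axons to their targets. Delta protocadherins have a different intracellular part from classical cadherins, and several delta-2 members recruit the WAVE complex, which drives branching of actin filaments at the growth cone.

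Markers of thalamic relay neurons (12 measured) averaged 9.68 to 10.69, with the embBE dLGN array 39_3 at P0 at 9.74 beside 10.28 to 10.69 in the rest of its group. Slc17a6, the vesicular glutamate transporter of thalamic neurons, ranged over 11.09 to 13.32, the transcription factor Tcf7l2 over 11.77 to 12.80, and Gbx2, an early thalamic transcription factor, over 4.57 to 9.05. The cortical gene Neurod6 stayed at 3.88 or below. RNA quality differed between the nuclei. The gap between the 3′ and 5′ control probe sets of beta-actin, which widens as the labelled RNA gets shorter, was 1.98 to 2.05 in VB and 3.33 to 3.94 in dLGN arrays of embBE pups at P4, and 2.25 to 2.55 in VB against 3.06 to 4.27 in dLGN at P0. It overlapped in the control arrays, with 1.95 to 3.14 in VB against 2.21 to 4.13 in dLGN at P4 and 2.20 to 4.29 in VB against 3.25 to 4.05 in dLGN at P0. Of the VB arrays, the control arrays 35_1 and 36_3 had the widest gaps, 4.29 and 3.14. Markers of the oligodendrocyte lineage (11 measured) averaged 8.88 to 8.98 in VB and 8.42 to 8.68 in dLGN arrays of embBE pups at P4, and 8.34 to 8.52 in VB against 7.99 to 8.30 in dLGN at P0. They did not overlap in control pups either, with 8.76 to 9.12 in VB against 8.31 to 8.69 in dLGN at P4 and 8.36 to 8.54 in VB against 8.15 to 8.19 in dLGN at P0. Further lists parted the nuclei in some groups. Markers of dividing cells were higher in embBE VB (7.14 to 7.25 in VB against 6.83 to 7.01 in dLGN at P4, 6.96 to 7.27 in VB against 6.40 to 6.56 in dLGN at P0). Those of relay neurons (10.05 to 10.12 in VB against 9.85 to 10.01 in dLGN) and of astrocytes and radial glia (10.55 to 10.58 in VB against 10.27 to 10.52 in dLGN) were higher in embBE VB at P4. Habenular markers were lower in embBE VB (6.30 to 6.33 in VB against 6.60 to 6.74 in dLGN at P4, 6.34 to 6.39 in VB against 6.71 to 6.96 in dLGN at P0), and so were those of choroid plexus and ependyma at P4 (5.63 to 5.74 in VB against 5.91 to 5.99 in dLGN). GABAergic markers were lower in VB of control pups at P4 (5.37 to 5.58 in VB against 5.90 to 6.11 in dLGN) and of embBE pups at P0 (5.26 to 5.39 in VB against 5.58 to 5.92 in dLGN). GABAergic markers (14 measured) were highest in the P0 control arrays labelled 39_5, at 6.67 in VB and 6.53 in dLGN, with 5.26 to 6.11 elsewhere. Meningeal fibroblast markers (10 measured) averaged 6.85 in the embBE dLGN array 36_2 at P4 and 5.55 to 6.14 in all other arrays. Their part in the results below was not tested beyond the fits named there.

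The members varied between the groups more widely than most genes. The difference between the highest and the lowest of a member's 8 group means had a median of 0.65 on the log2 scale, against 0.45 for all genes. It was above 1 in 13 of 33 members (39.4%), compared with 11% of all genes. The widest was that of Cdh13, at 2.80, followed by Pcdh17 at 2.35, Pcdh8 at 2.23, Cdh4 at 1.96, Pcdh7 at 1.89 and Cdh6 at 1.79. At the other end, 8 members (Cdh1, Cdh5, Cdh9, Cdh16, Cdh17, Cdh18, Cdh19 and Pcdh1) belonged to the third of genes with the lowest mean signal, below 6.20, where differences are hard to measure. Cdh5 is the cadherin of endothelial junctions, and Cdh1 that of epithelia.

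**Figure D1:**
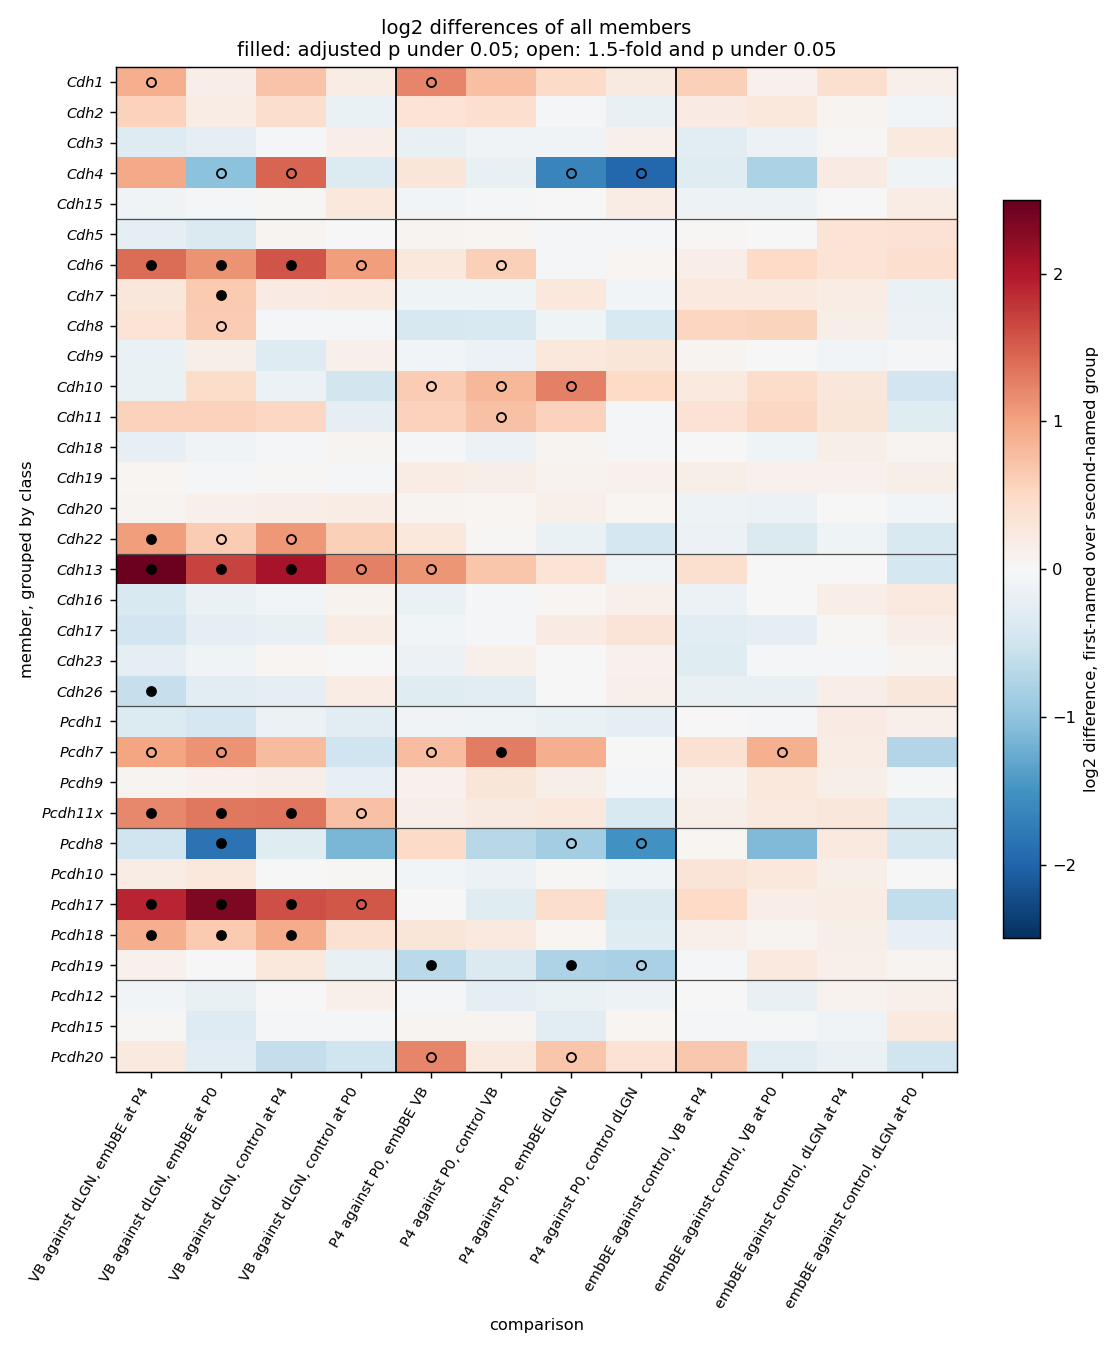
Heat map of the log2 differences of the 33 members (rows, grouped by class: type I, type II and other cadherins, then delta-1, delta-2 and other protocadherins) in the 12 comparisons between 2 groups (columns). Filled circles mark an adjusted p under 0.05 and open circles a difference that only met the 1.5-fold and p under 0.05 threshold. The filled circles lie mainly in the VB to dLGN columns, led by Cdh13 in embBE pups at P4 (2.46) and Pcdh17 in embBE pups at P0 (2.34).

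The first question was which members differ between the somatosensory and the visual nucleus. Pcdh17, Pcdh11x, Cdh13, Pcdh18 and Cdh6 were higher in VB than in dLGN, in embBE and in control pups, at both ages. For each of these 5 genes all 12 VB arrays lay above all 12 dLGN arrays. That held for 0.456% of all genes, and the opposite order, found in 0.517% of all genes, for 0 members. In pools of whole tissue, a larger number of expressing cells and more RNA per cell cannot be told apart.

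With an adjusted p under 0.05 as the threshold (limma, Benjamini-Hochberg over 18194 genes), 7 of 33 members differed between the nuclei in embBE pups at P4, against 8.44% of all genes. In embBE pups at P0, 7 members differed, against 7.46% of all genes. In control pups 5 members differed at P4 (all genes, 3.21%) and 0 at P0 (all genes, 1.56%). With the study's own threshold, a change of at least 1.5-fold with an unadjusted p under 0.05, the members numbered 8 in embBE pups at P4 (all genes, 11.5%), 11 in embBE pups at P0 (11.7%), 7 in control pups at P4 (4.7%) and 4 in control pups at P0 (3.57%). The median difference over the members was 0.07, 0.11, 0.04 and 0.08 in these 4 comparisons, with medians over all genes of −0.09, −0.06, −0.03 and 0.03.

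Of the delta-2 protocadherins, Pcdh17 (probe set 1436920_at) differed by the most. This gene promotes the extension of axons that travel together, by recruiting the WAVE complex to the contacts between them. At P4 it measured 9.99, 10.03 and 9.92 in embBE VB against 7.98, 8.62 and 7.62 in embBE dLGN, and 9.98, 8.99 and 9.50 in control VB against 8.45, 7.84 and 7.35 in control dLGN. At P0 it measured 10.05, 10.26 and 9.59 in embBE VB against 8.32, 6.31, 7.85 and 8.04 in embBE dLGN, and 9.58, 9.91 and 9.89 in control VB against 7.76 and 8.73 in control dLGN. The VB arrays lay between 8.99 and 10.26 and the dLGN arrays between 6.31 and 8.73, with the embBE P0 array 39_3 at the bottom. The difference was 1.91 ± 0.41 in embBE pups at P4 (log2 ± SE, 3.76-fold, adjusted p = 0.00704) and 2.34 ± 0.38 at P0 (5.05-fold, adjusted p = 0.000814). In control pups it was 1.61 ± 0.41 at P4 (adjusted p = 0.0311) and 1.55 ± 0.46 at P0 (adjusted p = 0.115). Its second probe set gave 1.52, 1.91, 1.71 and 1.55 in the same order. Without the dLGN array 40_3 the adjusted p in embBE pups at P4 was 0.0507, and in control pups at P4 it was 0.0753 to 0.36 without the dLGN array 36_3 or 40_1 or the VB array 24_2 or 40_1.

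Pcdh18 (1422889_at), a delta-2 protocadherin known to bind the reelin adaptor Dab1, differed by less but with a smaller spread. Its VB arrays measured 8.43, 8.10 and 8.46 (embBE) and 8.38, 8.08 and 8.16 (control) at P4, against 7.38, 7.62 and 7.25 (embBE) and 7.30, 7.26 and 7.27 (control) in dLGN. At P0 they measured 8.08, 8.16 and 7.86 (embBE) and 7.77, 8.11 and 8.01 (control), against 7.61, 7.13, 7.16 and 7.6 (embBE) and 7.54 and 7.6 (control) in dLGN. The gap between the nuclei was wider at P4, 0.91 ± 0.15 in embBE and 0.93 ± 0.15 in control pups (adjusted p = 0.000693 and 0.000675), than at P0, 0.66 ± 0.14 and 0.39 ± 0.17 (adjusted p = 0.00731 and 0.433). The widening with age in control pups was 0.54 ± 0.22 (adjusted p = 0.709), short of the study's threshold. A second Pcdh18 probe set gave 1.14 and 0.89 at P4 and 0.53 and 0.30 at P0 (embBE and control), and the dimmest, at a mean signal of 4.04, gave −0.34 to 0.19. Without the VB array 39_3 the adjusted p in embBE pups at P0 was 0.0505, with only the 2 groups in the fit it was 0.0595, and the mean of the Pcdh18 probe sets gave 0.37 (adjusted p = 0.107). Pcdh10, the delta-2 member best known for guiding thalamocortical and corticothalamic axons through the ventral forebrain, kept to 9.31 to 10.23 in all arrays and met no threshold between nuclei.

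Pcdh8 (1447825_x_at) went the other way. Known as arcadlin in the rat, its protein is induced by neuronal activity and removes N-cadherin from synapses. At P0 it measured 8.69, 8.18 and 8.95 in embBE VB against 9.98, 9.88, 10.67 and 11.25 in embBE dLGN, a difference of −1.84 ± 0.48 (adjusted p = 0.0253). In control pups the values were 9.54, 8.76 and 10.83 in VB against 10.73 and 10.94 in dLGN, which overlapped (−1.14 ± 0.57, adjusted p = 0.594). The high VB value belonged to array 39_5, the one with the highest GABAergic markers. At P4 the nuclei overlapped in embBE and in control pups (−0.50 ± 0.52 and −0.31 ± 0.52). Without the dLGN array 35_3 or any 1 of the VB arrays 35_3, 39_3 and 39_4, the adjusted p in embBE pups at P0 was 0.0529 to 0.12. Its second probe set gave −1.24 in embBE and −1.47 in control pups at P0, and the mean of the Pcdh8 probe sets had an adjusted p of 0.0617 in embBE pups.

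Of the delta-1 protocadherins, the X-linked Pcdh11x (1438889_at) was higher in VB. At P4 it measured 10.38, 10.53 and 10.09 in embBE VB against 8.94, 9.46 and 8.98 in embBE dLGN, and 10.20, 9.98 and 10.36 in control VB against 8.78, 8.99 and 8.76 in control dLGN. At P0 it measured 10.19, 10.27 and 10.11 in embBE VB against 9.09, 7.98, 9.32 and 9.11 in embBE dLGN, and 9.71, 9.69 and 10.45 in control VB against 9.23 and 9.20 in control dLGN. The difference was 1.20 ± 0.26 and 1.34 ± 0.26 at P4 (embBE and control, adjusted p = 0.00748 and 0.00385) and 1.32 ± 0.24 and 0.73 ± 0.29 at P0 (adjusted p = 0.0025 and 0.352), the last being 0.49 without the VB array 39_5. A second probe set of nearly the same signal gave 0.95 and 1.09 at P4 and 1.12 and 0.80 at P0. Pcdh7 of the same class met only the study's threshold, in embBE pups at P4 (0.98) and P0 (1.12), and its other probe sets, at mean signals of 6.19 and 3.87, gave −0.09 to 0.30 there. Without the dLGN array 39_4 Pcdh7 differed by 1.48 in embBE pups at P0 and passed the adjusted threshold. Pcdh9 and Pcdh1 met neither the study's nor the adjusted threshold in any comparison.

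Cdh13 (1423551_at), or T-cadherin, is held to the membrane by a lipid anchor and lacks the part that binds catenins. It showed the largest VB to dLGN difference of any member at P4. There it measured 9.36, 10.25 and 9.66 in embBE VB against 7.46, 7.39 and 7.05 in embBE dLGN, and 9.93, 8.81 and 9.35 in control VB against 7.86, 7.27 and 6.80 in control dLGN. At P0 it measured 8.78, 8.54 and 8.64 in embBE VB against 7.24, 6.47, 7.47 and 6.65 in embBE dLGN, and 8.12, 8.53 and 9.34 in control VB against 7.17 and 7.63 in control dLGN. The difference was 2.46 ± 0.34 in embBE (5.5-fold, adjusted p = 0.000126) and 2.05 ± 0.34 in control pups (4.15-fold, adjusted p = 0.000931) at P4. At P0 it was 1.70 ± 0.32 (adjusted p = 0.00282) and 1.27 ± 0.38 (adjusted p = 0.126). Without the VB array 35_1, the one with the widest beta-actin gap, the P0 difference in control pups was 1.54 (adjusted p = 0.0445). A second probe set gave 2.13, 1.74, 1.12 and 0.94 in the order above, and its remaining probe sets, at mean signals of 5.33 and 4.03, gave values between −0.27 and 0.12.

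Among the type II classical cadherins, Cdh6 (1442257_at) was the one that set the nuclei apart most clearly. In the mouse visual system Cdh6 marks a set of retinal ganglion cells and the targets that their axons choose. At P4 it measured 11.49, 11.68 and 11.37 in embBE VB against 10.14, 10.05 and 10.15 in embBE dLGN, and 11.59, 10.96 and 11.50 in control VB against 10.36, 9.75 and 9.22 in control dLGN. At P0 it measured 10.78, 11.31 and 11.68 in embBE VB against 10.57, 9.31, 10.48 and 10.18 in embBE dLGN, and 10.61, 10.83 and 10.84 in control VB against 9.69 and 9.76 in control dLGN. The nuclei came closest in embBE pups at P0, with the lowest VB array at 10.78 and the highest dLGN array at 10.57. The difference was 1.40 ± 0.29 and 1.57 ± 0.29 at P4 (embBE and control, adjusted p = 0.00563 and 0.00262) and 1.12 ± 0.27 and 1.04 ± 0.32 at P0 (adjusted p = 0.0167 and 0.151). In embBE pups at P0 the adjusted p was 0.0526 to 0.103 without the dLGN array 39_3 or the VB array 39_3 or 39_4, and in control pups at P4 it was 0.0612 without the VB array 24_2. Its second probe set, at a mean signal of 6.57, kept the sign. Over the other settings of the fit the Cdh6 difference was 0.972 to 1.52 (embBE) and 0.994 to 1.769 (control) at P4. At P0 it was 0.799 to 1.199 (embBE) and 0.725 to 1.109 (control).

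Cdh22 (1424767_at) was also higher in VB, at 8.36, 8.75 and 8.59 against 7.37, 8.12 and 7.09 in embBE pups at P4, and at 9.05, 8.83 and 8.24 against 7.73, 7.65 and 7.5 in control pups. The differences were 1.04 ± 0.31 (adjusted p = 0.0421) and 1.08 ± 0.31 (adjusted p = 0.0622). At P0 they were 0.63 ± 0.29 and 0.59 ± 0.34 (adjusted p = 0.154 and 0.705), and the embBE groups overlapped. In embBE pups at P0 Cdh22 differed by 0.41 without the dLGN array 39_3, and in control pups at P4 it passed the adjusted threshold (at 1.31) without the VB array 40_1. Without any one array but the embBE dLGN array 36_2, the P4 difference in embBE pups had an adjusted p of 0.0631 to 0.167. Cdh7 (1456970_at) differed in embBE pups at P0 alone by the adjusted p (0.65 ± 0.18, adjusted p = 0.0305), at 8.78, 8.58 and 8.49 in VB against 8.22, 7.81, 7.99 and 7.82 in dLGN. Without any 1 of these arrays other than the dLGN arrays 39_2 and 39_4, its adjusted p was 0.0627 to 0.137. Cdh8 (0.64 ± 0.27) met only the study's threshold there, passing the adjusted one (at 0.86) without the dLGN array 39_4, and Cdh10, Cdh11, Cdh20 and Cdh9 met none between the nuclei. Cdh26 (1456937_at) was lower in VB of embBE pups at P4, at 6.47, 6.55 and 6.41 against 6.99, 7.01 and 7.15 in dLGN (−0.57 ± 0.18, adjusted p = 0.0485), and leaving out any 1 of these 6 arrays took the adjusted p past 0.05.

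Cdh4 (1449422_at), or R-cadherin, had differences of opposite sign at P4 and at P0. This type I cadherin was first described in the retina. At P4 it measured 8.35, 9.62 and 8.73 in embBE VB against 7.24, 9.14 and 7.5 in embBE dLGN, and 9.05, 9.90 and 8.67 in control VB against 7.64, 7.66 and 7.95 in control dLGN. At P0 it measured 8.50, 8.32 and 8.96 in embBE VB against 9.44, 8.93, 9.64 and 10.43 in embBE dLGN, and 9.96, 8.61 and 9.60 in control VB against 9.67 and 9.76 in control dLGN. VB was above dLGN in control pups at P4 with no overlap (1.46 ± 0.46, adjusted p = 0.106), an order found in 5.51% of all genes. At P0 the control groups overlapped (−0.34 ± 0.52) and the embBE groups nearly parted the other way (−1.02 ± 0.43, adjusted p = 0.129). The change of the difference between the ages in control pups was 1.80 ± 0.69 (adjusted p = 0.684). Cdh4 was the only member to meet the study's threshold in that test, which 3.08% of all genes did, and 0 members and 0.022% of all genes had an adjusted p under 0.05. A second probe set of Cdh4 gave 1.56 in control pups at P4 and −0.16 at P0, and the dimmest, at a mean signal of 3.93, gave −0.20 and −0.02.

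**Figure D2:**
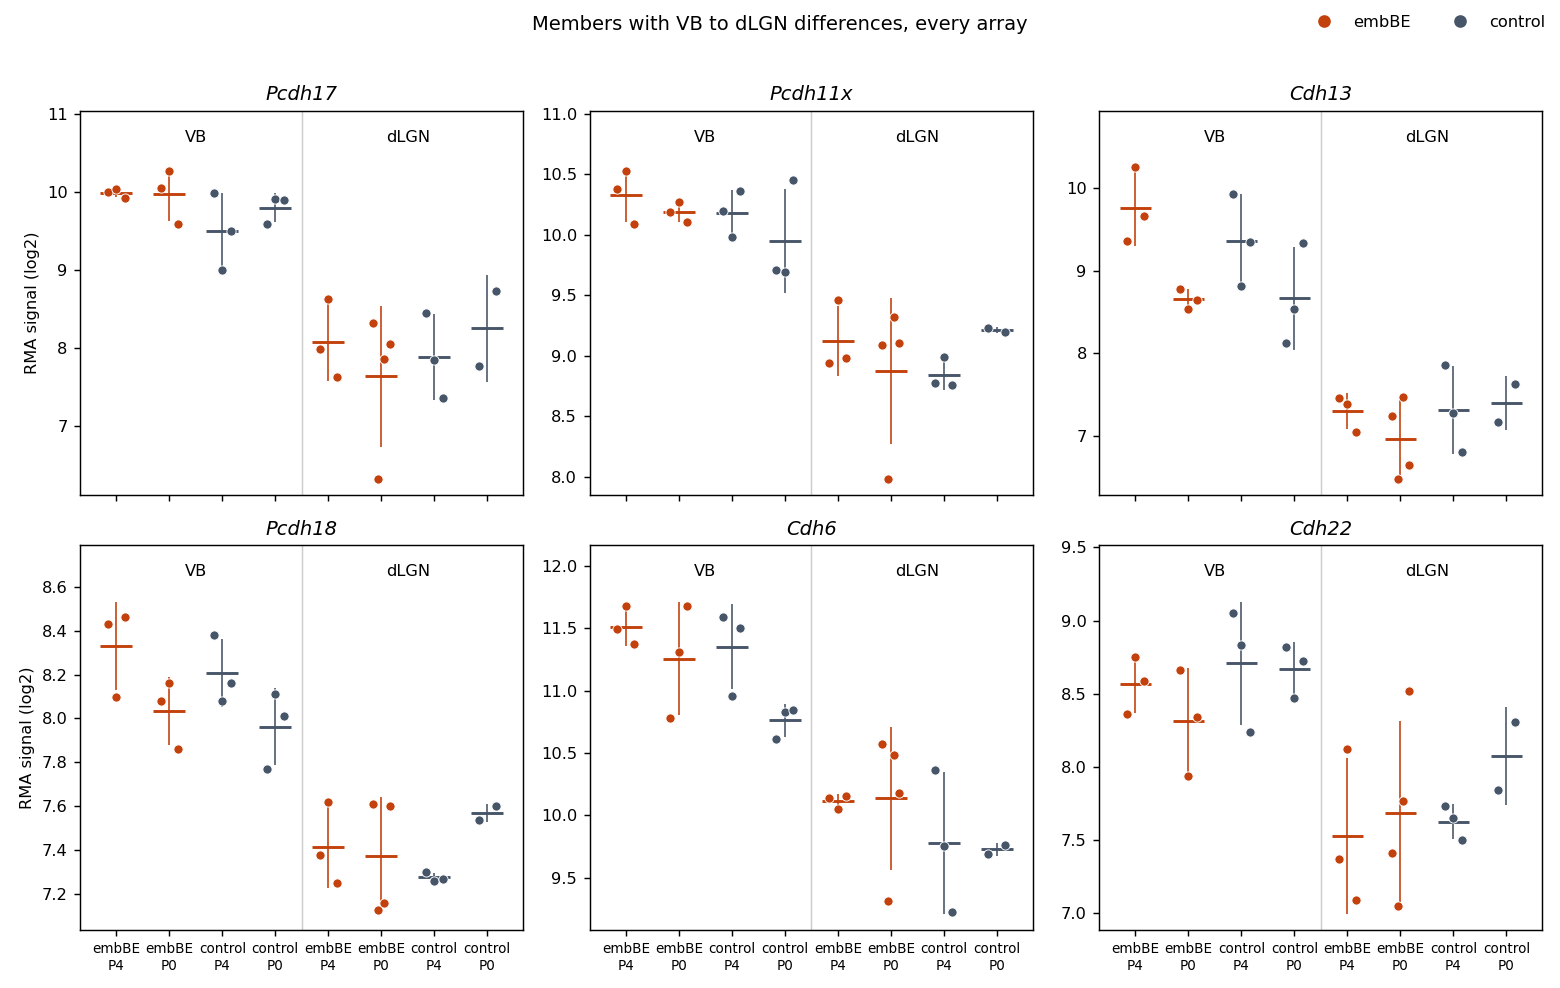
RMA signal (log2, vertical axes with their own ranges) of 6 members in every array, by nucleus, treatment and age on the horizontal axis. Points are arrays, horizontal bars group means and vertical lines SD (n = 2 to 4). For Pcdh17, Pcdh11x, Cdh13, Pcdh18 and Cdh6 every VB point lies above every dLGN point, and for Cdh22 the nuclei overlap in embBE pups at P0.

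RNA quality moved with this comparison in embBE pups, so each fit was repeated with the beta-actin gap of each array as a covariate. In embBE pups at P4 the calls fell to 2 members, Cdh13 (1.83, adjusted p = 0.00727) and Pcdh18 (0.84, adjusted p = 0.0172). Pcdh17 (1.57), Pcdh11x (1.13), Cdh6 (0.97) and Cdh22 (1.17) stayed higher in VB with adjusted p between 0.0793 and 0.175, and Cdh26 went to −0.07. In embBE pups at P0, 3 members remained called, Pcdh17 (2.09), Pcdh11x (1.27) and Cdh13 (1.22), while Cdh7 (0.32), Cdh6 (0.80), Pcdh18 (0.60) and Pcdh8 (−1.66) had adjusted p between 0.0569 and 0.432. Other members had met only the study's threshold in embBE pups. Of these, Cdh8 went to 0.06, Pcdh7 to 0.39 and Cdh4 to −0.43 at P0, and Pcdh7 to 0.02 at P4, with adjusted p between 0.768 and 0.994. Cdh22 was at 0.72 at P0 (adjusted p = 0.356) and still met the study's threshold. Cdh1 was at 1.05 at P4 (adjusted p = 0.482) and no longer did. In control pups the gaps overlapped between nuclei but reached higher in dLGN at P4 (1.95, 3.14 and 2.30 in VB against 2.21, 3.64 and 4.13). With the covariate 6 members were called there: Cdh13, Pcdh18, Cdh6, Pcdh11x, Cdh4 (1.85, adjusted p = 0.0124) and Cdh22 (1.15, adjusted p = 0.0411). Pcdh17 was then at 1.43 (adjusted p = 0.0564).

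**Figure D3:**
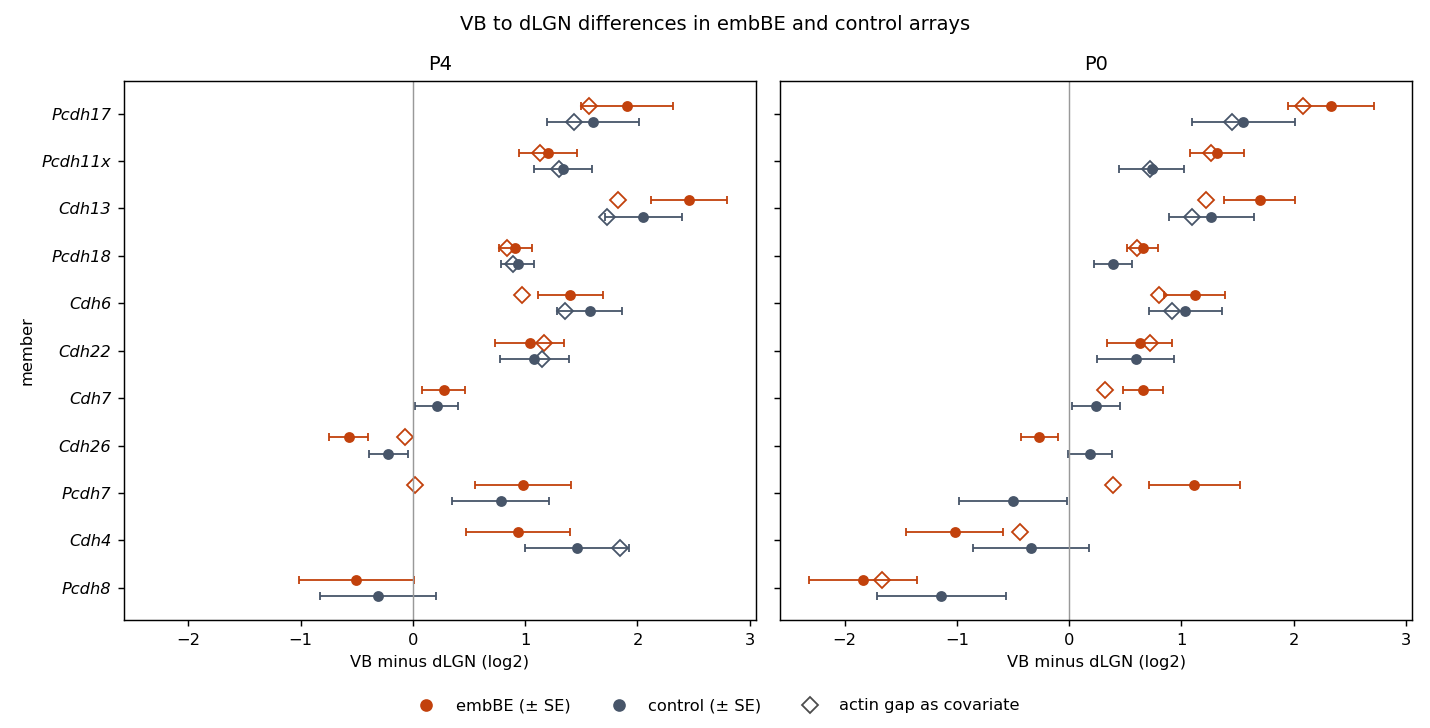
VB minus dLGN differences (log2, horizontal axis) of 11 members (vertical axis) at P4 and P0. Circles are estimates with their SE in embBE and control pups, and open diamonds the same estimate with the beta-actin gap as a covariate, drawn for the differences that met a threshold. The diamonds of Pcdh11x, Pcdh18 and Cdh22 lie close to the circles, and those of Cdh13, Cdh6 and Pcdh17 lie to the left of their circles. Those of Pcdh7 and Cdh26 in embBE pups at P4 lie at 0.02 and −0.07.

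RefSeq promoter windows of build GRCm38.p6 were given for 20 of the 33 members, and for Pcdh17, Pcdh18 and Cdh6 of the 5 genes that set VB apart. The 250 bases before the start of each of these 3 are printed because these genes moved together between the nuclei and carry the same short motif. Capitals mark GGGCGG or its reverse complement, the GC box that SP-family factors bind.
Pcdh17 (chr14:84443313-84443562, plus strand): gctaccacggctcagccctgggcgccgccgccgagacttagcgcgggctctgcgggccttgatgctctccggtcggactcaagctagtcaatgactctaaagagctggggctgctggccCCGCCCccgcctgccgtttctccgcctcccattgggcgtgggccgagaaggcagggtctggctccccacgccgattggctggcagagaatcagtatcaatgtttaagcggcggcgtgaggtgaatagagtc
Pcdh18 (chr3:49757317-49757566, minus strand): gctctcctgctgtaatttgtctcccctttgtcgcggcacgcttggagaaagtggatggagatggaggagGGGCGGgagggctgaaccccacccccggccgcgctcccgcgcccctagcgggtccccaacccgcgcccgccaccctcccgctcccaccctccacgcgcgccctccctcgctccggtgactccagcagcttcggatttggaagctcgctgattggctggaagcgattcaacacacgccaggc
Cdh6 (chr15:13173676-13173925, minus strand): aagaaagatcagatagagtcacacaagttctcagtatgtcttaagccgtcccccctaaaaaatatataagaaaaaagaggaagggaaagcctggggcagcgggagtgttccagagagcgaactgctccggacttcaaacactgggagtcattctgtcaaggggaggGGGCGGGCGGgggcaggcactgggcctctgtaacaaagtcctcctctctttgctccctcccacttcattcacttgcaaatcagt
Pcdh17 holds 1 match, Pcdh18 holds 1, and Cdh6 holds 2 that overlap each other. GGGCGG on either strand occurs in 32.7% of the 32851 windows of this length, and in those of 8 members (Cdh6, Cdh8, Cdh15, Cdh22, Pcdh10, Pcdh17, Pcdh18 and Pcdh19). Of 6 further motifs searched on both strands, none lies in these 3 windows: AGGTCA (nuclear receptors such as the ROR family, 14.0% of all windows), CTTTGA (TCF and LEF factors, 13.8%), TAATTA (homeodomain factors, 4.84%), GATTA (19.8%), ATTGTT (SOX factors, 9.42%) and CACCTG (an E-box, 17.2%). No motif of the 7 contains another. The windows of Pcdh17 and Pcdh18 are rich in CpG, with 21 and 23 of them, against 6 in Cdh6 and a median of 6 over all windows.

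The second question was how the members change over the first postnatal days. Pcdh19 was lower at P4, past the adjusted threshold in embBE VB and embBE dLGN. Pcdh7 passed it in control VB only, with higher values at P4, and no other member passed it in any group. The adjusted p was under 0.05 for 1 of 33 members in embBE VB (all genes, 3.42%), 1 in control VB (3.78%), 1 in embBE dLGN (1.02%) and 0 in control dLGN (0.561%). The study's threshold was met by 6 members in embBE VB (all genes, 4.54%), 4 in control VB (5.1%), 5 in embBE dLGN (3.48%) and 3 in control dLGN (3.69%). Markers of astrocytes and radial glia (12 measured) averaged 10.27 to 10.67 in the P4 arrays and 9.48 to 10.18 in the P0 arrays, so these markers moved with age as well. Oligodendrocyte lineage markers did too, at 8.76 to 9.12 at P4 against 8.34 to 8.54 at P0 in VB and 8.31 to 8.69 at P4 against 7.99 to 8.30 at P0 in dLGN, and so did those of choroid plexus and ependyma in dLGN, at 5.85 to 6.06 at P4 against 5.70 to 5.84 at P0. Other lists parted the ages in some groups. At P4 in embBE VB, relay neuron markers were lower (10.05 to 10.12 against 10.19 to 10.35 at P0). So were habenular ones. Microglial (6.83 to 6.93 against 6.50 to 6.67) and GABAergic markers (5.43 to 5.83 against 5.26 to 5.39) were higher there. Dividing-cell markers were higher in embBE dLGN (6.83 to 7.01 against 6.40 to 6.56). Cortical markers were higher in embBE and control VB, and microglial ones in control dLGN. The beta-actin gap parted the ages in embBE VB, at 1.98 to 2.05 at P4 against 2.25 to 2.55 at P0, and its ranges overlapped in the other groups. The part of these markers was not tested.

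Pcdh19 (1455145_at), the X-linked delta-2 protocadherin mutated in a human epilepsy of early childhood, associates with N-cadherin. It measured 11.49, 11.16 and 11.20 at P4 against 12.02, 11.87 and 11.96 at P0 in embBE VB, and 11.50, 11.17 and 11.34 against 11.65, 11.90 and 11.56 in control VB. In dLGN it measured 11.23, 11.16 and 11.16 at P4 against 11.77, 11.73, 12.30 and 12.06 at P0 in embBE pups, and 11.22, 10.99 and 11 against 11.90 and 11.88 in control pups. In each of the 4 pairs of groups every P4 array lay below every P0 array. Taken pair by pair, that order held for 20.9% of all genes in embBE VB, 9.26% in control VB, 6.04% in embBE dLGN and 12% in control dLGN. The difference was −0.66 ± 0.13 in embBE VB (adjusted p = 0.016), −0.37 ± 0.13 in control VB (adjusted p = 0.144), −0.78 ± 0.14 in embBE dLGN (adjusted p = 0.0228) and −0.82 ± 0.17 in control dLGN (adjusted p = 0.0609). Its other probe sets gave −0.27 to −1.16 in the same comparisons. Without any 1 array other than the P4 array 24_4 the adjusted p in embBE VB was 0.0503 to 0.0797, and in embBE dLGN it was 0.0688 to 0.116 without the P0 array 35_3 or the P4 array 24_4, 36_2 or 40_3. With the beta-actin gap as a covariate the adjusted p was 0.00226 in embBE VB, 0.00822 in embBE dLGN and 0.0188 in control dLGN.

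Pcdh7 (1456214_at), a delta-1 protocadherin whose intracellular part binds protein phosphatase 1, rose in control VB. It measured 9.86, 8.93 and 10.17 there at P4 against 8.02, 8.71 and 8.40 at P0 (1.28 ± 0.32, adjusted p = 0.0458). In embBE VB it measured 10.33, 9.36 and 10.42 at P4 against 9.18, 9.41 and 9.19 at P0, which overlapped (0.78 ± 0.32, adjusted p = 0.238). In dLGN it measured 9.30, 8.61 and 9.25 at P4 against 8.46, 7.62, 9.24 and 7.26 at P0 in embBE pups (0.91 ± 0.43), and 9.43, 9.06 and 8.12 against 9.03 and 8.73 in control pups (−0.01 ± 0.51). Without the P0 array 35_1 or 39_5 or the P4 array 24_2 or 40_1, the adjusted p in control VB was 0.0979 to 0.198. Its other probe sets, at mean signals of 6.19 and 3.87, gave 0.03 and 0.26. With the beta-actin gap as a covariate Pcdh7 was at 0.94 in control VB (adjusted p = 0.0441). In embBE VB it was then at 0.578, short of 1.5-fold.

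Cdh4 and Pcdh8 met the study's threshold in dLGN, with lower values at P4. Cdh4 differed by −1.65 ± 0.41 in embBE (adjusted p = 0.0869) and by −1.96 ± 0.49 in control pups (adjusted p = 0.142). In control pups its ages did not overlap, an order found in 12% of all genes. Pcdh8 measured 9.22, 10.60 and 8.92 at P4 against 9.98, 9.88, 10.67 and 11.25 at P0 in embBE pups (−0.87 ± 0.38, adjusted p = 0.4), and 9.40, 9.31 and 9.27 against 10.73 and 10.94 in control pups (−1.51 ± 0.46, adjusted p = 0.237). The high P4 values, 9.14 for Cdh4 and 10.60 for Pcdh8, came from the embBE array 36_2, in which the meningeal markers were also highest. Without that array Cdh4 differed by −2.24 (adjusted p = 0.0252) and Pcdh8 by −1.37 in embBE pups, and without the P4 array 40_3 Pcdh8 differed by −0.54. In VB neither gene met a threshold with age.

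Cdh10 (1425092_at), a type II cadherin, measured 10.47, 10.04 and 10.46 at P4 against 9.89, 8.41, 9.44 and 8.53 at P0 in embBE dLGN (1.25 ± 0.34, adjusted p = 0.11). It met the study's threshold in embBE VB (0.63 ± 0.24) and control VB (0.83 ± 0.24) too, and was at 0.51 ± 0.41 in control dLGN. Cdh13 was higher at P4 in embBE VB (1.10 ± 0.32, adjusted p = 0.0914), and at 0.70 ± 0.32 in control VB. In embBE VB every P4 array of Cdh13 lay above every P0 array, as for 17.6% of all genes. Pcdh20 met the study's threshold in embBE VB (1.22 ± 0.48) and embBE dLGN (0.69 ± 0.20). In VB the P4 array 36_2 was at 9.02, beside 7.19 and 6.82, and the difference was 0.55 without it. Cdh6 and Cdh11 met the threshold in control VB (0.59 ± 0.21 and 0.73 ± 0.24), and without the P4 array 36_3 Cdh6, Cdh10 and Cdh11 all passed the adjusted one, as did Cdh10 without the P0 array 39_5 and Cdh11 without the P0 array 35_2. Without the P0 array 35_1, Cdh10 was at 0.55 and Cdh11 at 0.46 there. Cdh1 met it in embBE VB (1.23 ± 0.53) at a mean signal of 4.25 over all arrays, with P4 arrays at 6.22, 3.60 and 6.04, and was 2.07 without the array 36_2 (3.60) and 0.76 without the array 24_4 (6.22). Cdh1 also met the threshold between VB and dLGN in embBE pups at P4 (0.91 ± 0.43, adjusted p = 0.142), at 0.44 without the VB array 24_4 and 1.75 without the VB array 36_2. With the beta-actin gap as a covariate, the age differences of Cdh6 (0.455) and Cdh11 (0.407) in control VB fell short of 1.5-fold. So did that of Cdh10 (0.481) in embBE VB. Cdh13 (0.941), Pcdh20 (1.193) and Cdh1 (1.271) in embBE VB still met the study's threshold, as did Cdh10 (1.254) and Pcdh20 (0.692) in embBE dLGN.

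**Figure D4:**
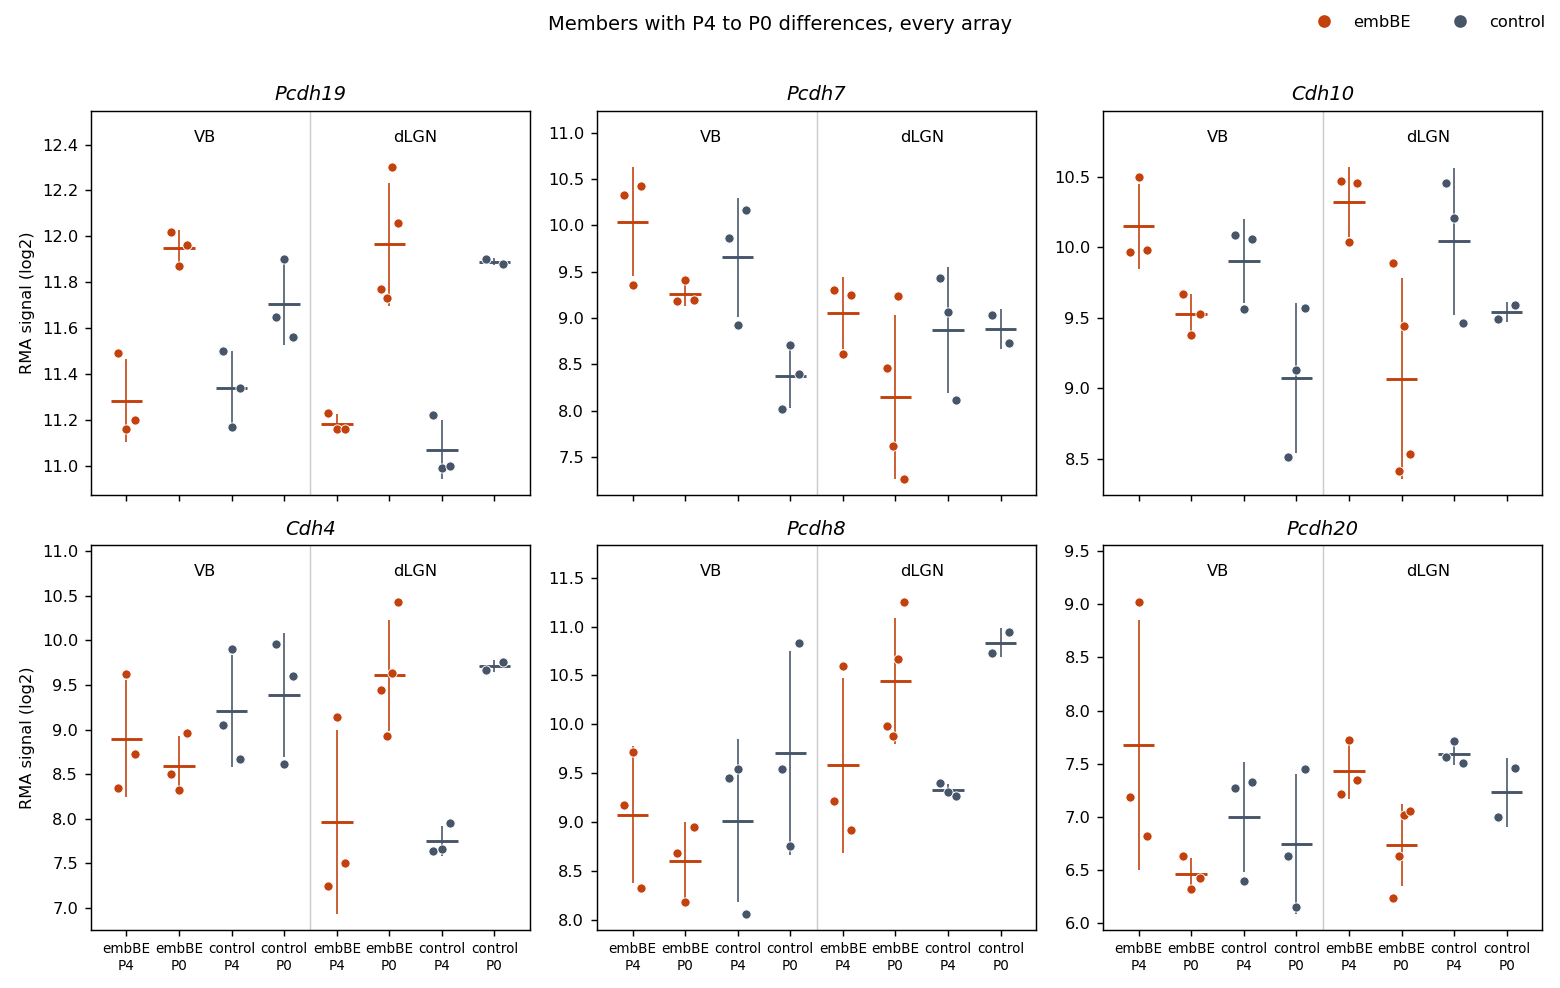
RMA signal (log2, vertical axes with their own ranges) of 6 members in every array, by nucleus, treatment and age on the horizontal axis. Points are arrays, horizontal bars group means and vertical lines SD (n = 2 to 4). Pcdh19 is lower at P4 in all 4 pairs of groups, and Cdh4 and Pcdh8 are lower at P4 in dLGN, with the embBE array 36_2 at 9.14 and 10.60.

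The third question was whether the loss of the eyes before birth changed the family. With an adjusted p under 0.05, 0 members and 0% of all genes differed between embBE and control pups in any nucleus or age. At an unadjusted p under 0.05 alone, 3 members passed in VB at P0 (all genes, 6.7%), 2 in VB at P4 (3.98%), 0 in dLGN at P0 (2.38%) and 1 in dLGN at P4 (1.3%). The study's threshold was met by 1 member in VB at P0 (all genes, 0.726%) and by 0 in VB at P4 (0.159%), dLGN at P0 (0.445%) and dLGN at P4 (0.198%). The median difference over the members lay between −0.04 and 0.14. Some marker lists parted the treatments at P0. Markers of astrocytes and radial glia were lower in embBE dLGN (9.48 to 9.89 against 10.04 to 10.13 in control). So were those of dividing cells (6.40 to 6.56 against 6.76 to 6.97). Habenular markers were lower in embBE VB (6.34 to 6.39 against 6.44 to 6.65). The part of these lists was not tested.

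The member that met it was Pcdh7, at 9.18, 9.41 and 9.19 in embBE against 8.02, 8.71 and 8.40 in control VB at P0. Every embBE array was above every control array, as for 4.47% of all genes. The difference was 0.89 ± 0.32 (1.85-fold, adjusted p = 0.679). The lowest control value, 8.02, came from array 35_1, which has the widest beta-actin gap of the VB arrays. Without that array the difference was 0.71 and without the embBE array 39_3 it was 0.81, and neither met the threshold. It was not met with all 24 arrays in 1 fit (0.89) or with the mean of the Pcdh7 probe sets (0.30) either. With the beta-actin gap as a covariate it was 0.52, short of the threshold. Its other probe sets, both dimmer, gave −0.06 and 0.08.

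In dLGN at P0 the Pcdh7 difference ran the other way, with 8.46, 7.62, 9.24 and 7.26 in embBE against 9.03 and 8.73 in control pups (−0.73 ± 0.48, adjusted p = 0.851). The difference between the embBE effects in VB and in dLGN was 1.61 ± 0.63 (adjusted p = 0.551). Without the dLGN control array 35_1 it was 1.47 and no longer met the study's threshold. Pcdh7 was the 1 member of 33 to meet the study's threshold in that test, against 2.54% of all genes. At P4 the same test gave 0 members (all genes, 0.478%), and the tests of the embBE effect at P4 minus that at P0 gave 0 members in VB (0.346%) and 0 in dLGN (0.418%).

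Of the 5 genes that set VB apart, none met the study's threshold between embBE and control pups. Pcdh17 was at 0.49 ± 0.22 in VB at P4 (adjusted p = 0.751) and at 0.17 ± 0.22 in VB at P0, and at 0.19 ± 0.48 and −0.62 ± 0.51 in dLGN. Cdh6 was at 0.50 ± 0.21 in VB at P0 (adjusted p = 0.679). Pcdh8 and Cdh4, the members with the largest negative values, were at −1.10 ± 0.51 and −0.80 ± 0.40 in VB at P0 (adjusted p = 0.679 for each). With only the 2 groups in the fit both met the study's threshold, and Pcdh8 met it with cyclic loess and with trended and robust eBayes as well.

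The proteins that cadherins work with were compared from lists of their own. Among 15 catenins and junction partners, Nectin3, an adhesion protein of the same junctions, was higher in VB of embBE pups at P4 (1.14 ± 0.27, adjusted p = 0.0138) and at P0 (0.84 ± 0.25, adjusted p = 0.0469), and was at 0.87 ± 0.27 in control pups at P4 (adjusted p = 0.0944). Nectin1 was lower there in embBE pups at P4 (−0.42 ± 0.13, adjusted p = 0.0459), and the catenins themselves did not pass the adjusted threshold between nuclei. Of 7 measured WAVE complex members and protocadherin partners, 1 passed it, Abi1 in embBE pups at P4 (0.75 ± 0.16, adjusted p = 0.00764), where 8.44% of all genes did.

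Of 12 other members of the cadherin superfamily, Clstn1, a calsyntenin that links cargo to kinesin in axons, was higher in VB in all 4 comparisons, by 1.12 ± 0.17 and 1.19 ± 0.17 at P4 (embBE and control) and by 0.86 ± 0.16 and 0.85 ± 0.19 at P0, with adjusted p between 0.000188 and 0.0211. The giant cadherins Fat4 (−1.47 ± 0.24, adjusted p = 0.00149) and Fat1 (−0.999 ± 0.19, adjusted p = 0.00567) were lower in VB of control pups at P0. Fat4 was also lower in VB of embBE pups at P0 (−0.70 ± 0.20, adjusted p = 0.0382), and Clstn2 in control pups at P0 (−1.06 ± 0.22, adjusted p = 0.0131). The 23 clustered protocadherins measured gave 1 call between the nuclei by the adjusted p, Pcdhb22 in embBE pups at P0 (0.80 ± 0.23), where 7.46% of all genes were called. They gave 0 in the other 3 comparisons, embBE pups at P4 (all genes, 8.44%) and control pups at P4 (3.21%) and P0 (1.56%).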

How the data were processed

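RNA of VB and dLGN pools went through 2 rounds of amplification and was hybridized to Affymetrix GeneChip Mouse Genome arrays. The values deposited by the authors are log2 signals after RMA, whose version is not given in the sources used here, and they were used unchanged. Detection calls were not used here, and the number of arrays limits the precision. The 45101 probe sets were named from the platform annotation, which gave 18194 genes. Treatments and ages were compared over the 12 arrays of a nucleus by lmFit and eBayes of limma (version 3.58.1, under R 4.3.3), and nuclei over 24 arrays with the label number pair as a random block (consensus correlation −0.0196). P-values were adjusted by Benjamini-Hochberg over all genes. Differences between treatments, and of effects, were counted by the study's threshold, the others by the adjusted p. Named genes were those that met either threshold. The procedure was tested on simulated data. The members, lists and tests were chosen with earlier results of these data known. Alternatives were the methods' t-test, probe-set means, other probe sets, a filter on dim genes, cyclic loess, median centring, trended and robust eBayes, other sets of arrays in the fit, a block for the first label number, no random block, each array left out, and, added after the data were seen, the beta-actin gap as a covariate. Nothing states which arrays share animals, so p-values measure the spread between pools. Promoter windows are those of RefSeq. Plots were made in Python 3.11.15 (matplotlib 3.10.9).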

Additional observations from a re-analysis of the deposited data

Results flagged for a closer look

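Pcdh11x stood out in 1 array. In embBE dLGN at P0 the array 39_3 measured 7.98, while the other 3 lay between 9.09 and 9.32, so that its gap to the nearest was 0.83 of the whole range, just above the limit for 4 samples. All 33 members were examined in this group of 4, and chance alone passes that limit in about 1 of 20 groups. The same array was the lowest of its group for Pcdh17, Pcdh18, Cdh13 and Cdh6 as well. Without it the VB to dLGN difference in embBE pups at P0 was 1.90 for Pcdh17 and 1.019 for Pcdh11x. It was then 1.535 for Cdh13, 0.576 for Pcdh18 and 0.847 for Cdh6, in each case the lowest value with any 1 array left out.

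The effect of embBE on Pcdh7 at P0 differed between VB and dLGN by 1.61 on the log2 scale at an unadjusted p of 0.018 (limma, adjusted p = 0.551). The difference of Cdh4 between VB and dLGN in control pups changed between P4 and P0 by 1.80 at an unadjusted p of 0.0176 (limma, adjusted p = 0.684). Neither passed the adjustment over all genes.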

How the results depend on the processing

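Counts here and below are of members called. The shares of all genes called under the same settings are not given here. A change in a count is therefore not read as a result about the members. The methods' t-test, run on each gene alone, gave 0 for age in embBE VB, control VB and embBE dLGN, and for VB against dLGN 0 in embBE pups at P0, 4 in embBE pups at P4 and 0 in control pups at P4. With only the 2 groups compared in the fit there were 3 for embBE in VB at P0, 5, 0, 0 and 2 for age in embBE VB, control VB, embBE dLGN and control dLGN, and 14 for VB against dLGN in embBE pups at P4. Probe-set means gave 0 for embBE in VB at P0, 0 for age in control VB, 1 for age in control dLGN, and 0 for the embBE effect in VB minus dLGN at P0. Cyclic loess gave 2 for embBE in VB at P0, 2, 2 and 1 for age in control VB, embBE dLGN and control dLGN, and 1 for VB against dLGN in control pups at P0. Median centring gave 0 for age in control VB and embBE dLGN, trended and robust eBayes 2 for embBE in VB at P0, and all 24 arrays in 1 fit 0, 3 and 1 for age in control VB, embBE dLGN and control dLGN. Without the VB control arrays 35_1 and 36_3 there were 3 for age in control VB and 1 for VB against dLGN in control pups at P0. The beta-actin gap gave 0 for embBE in VB at P0, 3 and 1 for age in control VB and control dLGN, 3 and 2 for VB against dLGN in embBE pups at P0 and P4, and 1 for the embBE effect at P4 minus P0 in dLGN. Single calls between nuclei ended with only the 2 groups in the fit for Cdh6 and Pcdh18 in embBE pups at P0 (adjusted p = 0.0801 and 0.0595) and Pcdh17 in control pups at P4 (0.0539), with cyclic loess for Cdh22 (0.057) and with median centring for Cdh26 (0.0563) in embBE pups at P4, and with probe-set means for Pcdh18 and Pcdh8 in embBE pups at P0 (0.107 and 0.0617). The call of Pcdh7 for embBE in VB at P0 ended with all 24 arrays in 1 fit (0.886). The cause of these changes was not tested.

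Whether arrays with the same label numbers come from the same pups is not stated. VB and dLGN arrays with the same numbers deviated from their group means with correlations of −0.552 to 0.718. With so few arrays in a group these values cannot settle it. With the first number as a replicate block, 3 members were called for embBE in VB at P0 (Pcdh7, Cdh4 and Pcdh8) and 1, Pcdh8, for the embBE effect at P4 minus P0 in VB, and the other counts it gave were within 1.5 times. Without the random block between nuclei all counts were within 1.5 times.

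Leaving out 1 array at a time gave 3 to 12 members for VB against dLGN in embBE pups at P0, 4 to 7 at P4, and 0 to 1 and 3 to 5 in control pups at P0 and P4. Age gave 0 to 1 in embBE VB, 0 to 4 in control VB, 0 to 1 in embBE dLGN and 0 in control dLGN. EmbBE gave 0 to 5 and 0 to 3 in VB at P0 and P4, and 0 to 2 and 0 in dLGN. The embBE effect in VB minus dLGN gave 1 to 5 at P0 and 0 to 1 at P4, its change with age 0 to 1 in VB and dLGN, and the change of the nucleus difference with age 0.

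Single genes changed sign only with other, mostly dim, probe sets, none of them called. Cdh13 gave −0.268 and −0.084 for VB against dLGN in embBE pups at P0, −0.193 and −0.104 at P4, −0.027 in control pups at P0 and −0.029 and −0.193 at P4, and −0.163 and −0.114 for age in embBE VB. Pcdh18 gave −0.081 and −0.34 in embBE pups at P0 and P4 and −0.027 in control pups at P4. Pcdh7 gave −0.091 and −0.025 in embBE pups at P0 and P4, −0.064 for embBE in VB at P0 and −0.054 for the difference of that effect between nuclei. Cdh10 gave −0.055 and −0.002 for age in embBE VB and −0.042 in control VB. Cdh4 gave 0.058 for age in control dLGN, −0.198 for VB against dLGN in control pups at P4 and −0.179 for its change with age, and Cdh8 gave −0.147 in embBE pups at P0.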
